A study of Mus musculus with 20 samples.

Results

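The HoxC cluster, Hoxc4 to Hoxc13, was described through the peaks that chromatin immunoprecipitation followed by sequencing gave across chr15:102700001-102910000 of the mouse mm9 build. Of the 4480164 peaks in the 10 deposited lists, 432 had at least 1 bp in this window of 210 kb. The cells were mouse embryonic fibroblasts from C57BL/6 embryos at E13.5, cultured in 10% serum and used at passage 4. The genotypes were wild type (WT) and SS, a name that the labels do not explain, and the series title concerns retroelement silencing by a tumour suppressor. H3K27me3, a repressive histone mark, was immunoprecipitated from WT and SS cells that were proliferating or had been arrested by serum deprivation. Ezh2, the enzyme that writes the mark, was immunoprecipitated from serum-deprived WT and SS cells. pRb, the retinoblastoma protein, was immunoprecipitated with 5 listed antibodies from arrested and proliferating WT and SS cells. Arrest used 0.1% serum for 72 h in the treatment protocol, while another label of the arrested pRb libraries names confluence. The labels do not say how many embryos a culture came from. Every group is a single library, so the spread between replicates is unknown and no test was run.

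Hox genes encode homeodomain transcription factors that set position along the body axis, and their order along the chromosome follows the order in which they act from head to tail. In the HoxC cluster Hoxc4, Hoxc5 and Hoxc6 act in the neck and upper trunk, Hoxc8 and Hoxc9 in the trunk, where they pattern motor neurons, and Hoxc10, Hoxc11 and Hoxc12 further towards the tail. Hoxc13, at the tail end of the series, controls keratin genes of hair and nail. Outside the cells that use them, Hox genes are kept silent by Polycomb repressive complexes, and long stretches of H3K27me3 over Hox clusters are a textbook example of such silencing. Fibroblasts retain a Hox pattern that reflects where in the body they arose. pRb holds back E2F transcription factors and recruits chromatin-modifying enzymes.

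All 9 members were found in the RefSeq gene table of GRCm38.p6, which was used for names and order only. From the low to the high end the order is Hoxc13, Hoxc12, Hoxc11, Hoxc10, Hoxc9, Hoxc8, Hoxc6, Hoxc5 and Hoxc4. The noncoding RNA Hotair lies between Hoxc12 and Hoxc11. Mir196a-2 lies between Hoxc10 and Hoxc9, and Mir615 between Hoxc5 and Hoxc4 by start position. No mm9 annotation was used, so a peak below is placed by its position and by its side of the window, not by gene. The promoter table held 1 of the 9 members, Hoxc4. Its promoter is shown because it marks the high end of the cluster, and CpG dinucleotides, which are frequent in the promoters that Polycomb occupies, are in capitals. It lies on the plus strand at chr15:103034145-103034444 of GRCm38.p6, a position that cannot be set against the mm9 positions below.
Hoxc4: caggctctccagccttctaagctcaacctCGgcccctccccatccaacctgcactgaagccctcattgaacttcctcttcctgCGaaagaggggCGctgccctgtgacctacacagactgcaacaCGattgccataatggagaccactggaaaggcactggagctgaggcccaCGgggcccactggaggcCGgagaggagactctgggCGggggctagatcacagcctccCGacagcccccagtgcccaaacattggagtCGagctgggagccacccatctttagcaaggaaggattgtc

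This Hoxc4 promoter of 300 bases holds 9 CpG and 60.3% G or C, where the median over 32851 mouse promoters of the same length is 7 CpG and 52.7%. At least 9 CpG were found in 45.8% of those promoters. None of the E2F strings TTTCCCGC, TTTGGCGC, TTTCGCGC and TTTGCCGC occurred in it on either strand, and 2.26% of all promoters held at least 1 of them. The mature microRNAs encoded between the members are shown because they belong to the cluster. Capitals mark the seed, bases 2 to 8, and the 4 seeds differ. The sequences are from RefSeq with build GRCm38.p6. miR-196a is known to target Hox messenger RNAs.
mmu-miR-196a-5p: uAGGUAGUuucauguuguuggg
mmu-miR-196a-2-3p: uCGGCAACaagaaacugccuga
mmu-miR-615-5p: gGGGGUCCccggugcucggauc
mmu-miR-615-3p: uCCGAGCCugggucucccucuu

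Depth is unknown for all libraries because the lists hold peaks and no reads. Among the H3K27me3 lists that of arrested WT cells differed most in size, with 656342 peaks against 143252 to 227847, and its median -log10 q-value per peak was 8.51 against 1.77 to 2.47. Coverage below is the percentage of bases in called peaks. It is not an amount of protein or mark, and a mark on all copies of a locus in some cells cannot be told apart from a weaker mark in all cells.

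H3K27me3 covered nearly the whole cluster in proliferating cells and a smaller, unevenly placed part of it in arrested cells. When proliferating, WT cells had 97.7% and SS cells 99.4% of the window covered. When arrested, WT cells had 51.5% and SS cells 66.7%. The whole autosomes were covered to 9.51%, 11.5%, 7.47% and 6.45% in the same order, so the window stood 6.89 to 10.3 times above them. Among 11763 other autosomal windows of 210 kb, 0 had a higher share in the proliferating WT, proliferating SS or arrested WT list, and 7 did in the arrested SS list. The window follows the limits of the longest proliferating peaks, which were known when it was drawn, so its high proliferating rank is a description. The other windows were tiled without regard to domain limits, which can favour its arrested rank too. Among the 49 other longest domains, described below and taken at their own limits, 7 had a higher arrested share than HoxC in WT and 42 in SS cells.

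The number and length of the H3K27me3 peaks differed far more than the coverage. The proliferating SS list crossed the window with 2 peaks, of which 1 ran for 207222 bp from 102702120 to 102909341, the longest of its list. In proliferating WT cells there were 6 peaks, and the longest, again the longest of its list, spanned 184970 bp at 102723644-102908613. In arrested SS cells 51 peaks were called, the longest of 76618 bp at 102735326-102811943 being the second longest of 227847 in its list. In arrested WT cells 97 peaks were called, the longest of 11478 bp at 102786367-102797844. Gaps between peaks reached 662 bp in proliferating SS, 1689 bp in proliferating WT, 3621 bp in arrested SS and 5103 bp in arrested WT cells. The H3K27me3 signal called over HoxC was thus unbroken over most of the cluster in the proliferating lists and split into many pieces in the arrested lists.

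The authors' fold enrichment of the longest peak over background was 6.53 in proliferating WT and 7.21 in proliferating SS cells, where the median peak of each list had 2.59 and 2.62. In arrested SS cells the longest peak had 4.62 against a list median of 3.24. In arrested WT cells it had 7.83 against a list median of 5.85. The longest HoxC peak lay above its own list's median in each of the 4 lists, and fold enrichments were not compared between lists.

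**Figure D1:**
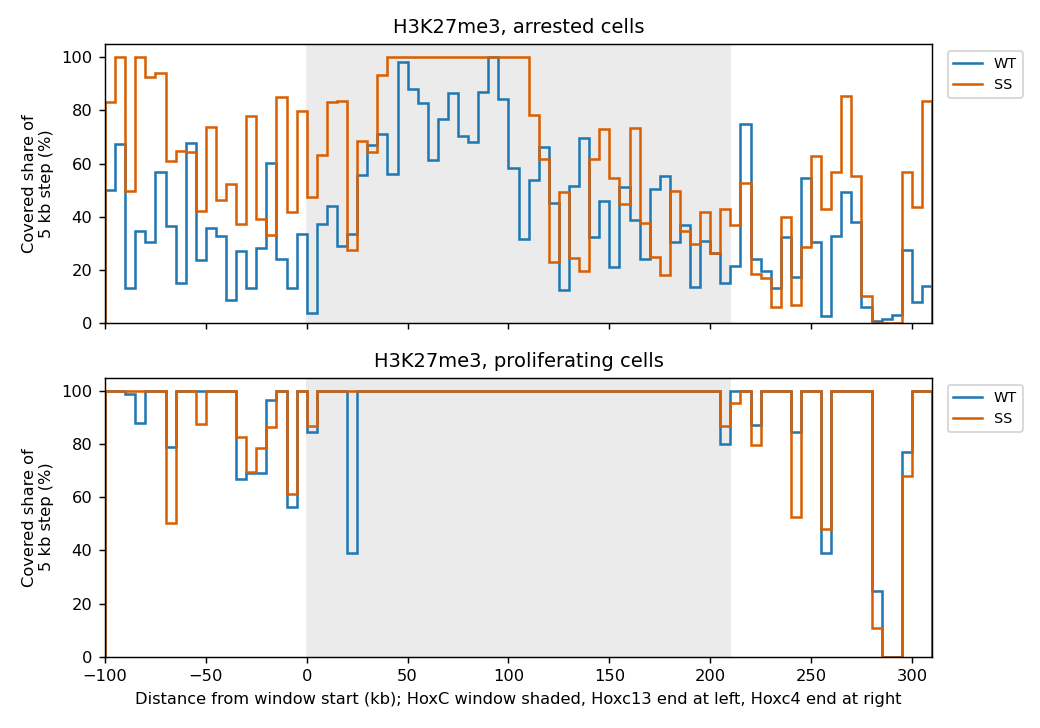
Share of each 5 kb step covered by H3K27me3 peaks (y axis, %) against distance from the window start (x axis, kb), in arrested (top) and proliferating cells (bottom), WT in blue and SS in orange, 1 library each. The arrested SS list covers 14 steps of the shaded window fully, 13 of them on the Hoxc13 side, whereas the proliferating lists cover 39 (WT) and 40 (SS) of 42 steps fully.

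In arrested cells of both genotypes the mark was denser towards Hoxc13 than towards Hoxc4. Divided at its midpoint, the window had 64.7% (WT) and 87.2% (SS) covered on the Hoxc13 side. On the Hoxc4 side 38.3% (WT) and 46.2% (SS) were covered. The differences between the sides were 26.5 percentage points in WT and 41.0 in SS cells. In proliferating cells the same sides were covered to 96.4% and 99.1% in WT and to 99.4% each in SS cells, so the arrested unevenness was not present in called coverage there. When each of the 49 other longest H3K27me3 domains, described below, was split at its midpoint, the median difference between its sides was 9.19 points for the arrested WT list and 7.92 points for the arrested SS list. Of these 49 domains, 1 exceeded the HoxC difference in WT and 1 in SS cells. The division at the midpoint was chosen after the profile was seen.

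The long arrested SS peak marked the dense stretch, and the arrested WT list, which took no part in setting its limits, was dense over the same bases. WT peaks covered 74.6% of chr15:102735326-102811943, against 39.2% of the window before it and 37.9% after it. Of the 14 steps of 5 kb that lie wholly inside the stretch, 13 were covered to at least 50% in WT cells, with a median of 79.9%. After it, 6 of 19 steps were, with a median of 36.7%. The 3 WT peaks of at least 5 kb in the window lay between 102745081 and 102797844, all inside the stretch. Outside it the SS list covered 62.0% before and 42.4% after. Over the 42 steps the WT and SS shares had a Spearman rho of 0.61 and a Pearson r of 0.61, as a description of neighbouring steps of the same chromosome. Which Hoxc genes lie in the dense stretch was not determined without an mm9 annotation.

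**Figure D2:**
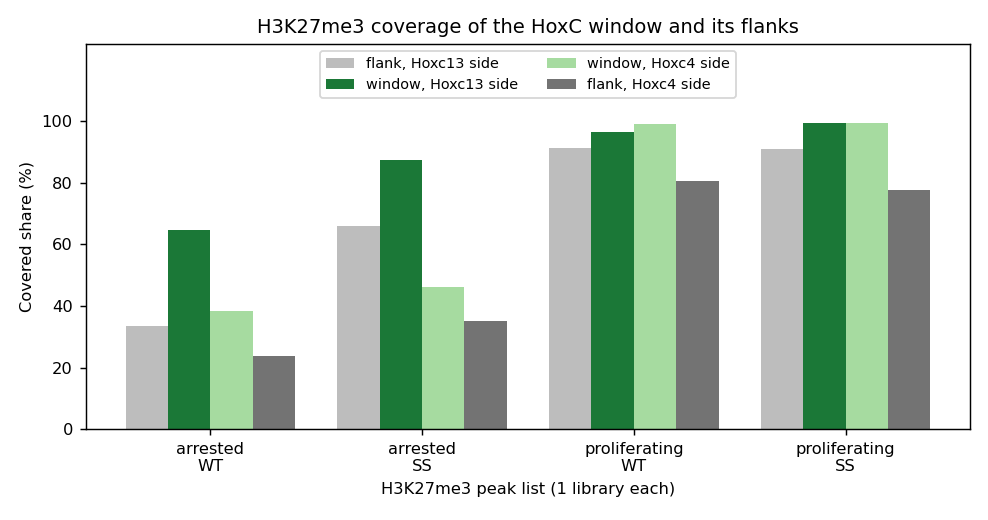
Covered share (y axis, %) of the window on either side of its midpoint and of the 100 kb flanks, for the 4 H3K27me3 lists (x axis, 1 library each, so no error bars). In the arrested lists the Hoxc13 side (dark green; 64.7% in WT, 87.2% in SS) stands above the Hoxc4 side (light green; 38.3% and 46.2%), while in the proliferating lists the sides lie between 96.4% and 99.4%.

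The window was covered more than its flanks in all 4 H3K27me3 lists, but the flanks were themselves rich in the mark. The 100 kb beside Hoxc13 were covered to 33.6% (WT) and 65.9% (SS) under arrest and to 91.2% (WT) and 90.8% (SS) in proliferation. The 100 kb beside Hoxc4 were covered to 23.6%, 35.3%, 80.6% and 77.7% in the same order. The window exceeded the mean of both flanks by 22.9, 16.1, 11.8 and 15.1 percentage points. In arrested SS cells the window, at 66.7%, lay close to the 65.9% of the flank beside Hoxc13. That excess therefore came almost wholly from the flank beside Hoxc4. Since the window follows the limits of the longest proliferating peaks, the proliferating excess over the flanks is a description that its choice favours. On the Hoxc4 side coverage was interrupted at chr15:102985001-102995000, where both proliferating lists and the arrested SS list had 0% in the 2 steps and the arrested WT list 1.66% and 3.08%.

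In arrested cells SS covered more of the HoxC window than WT, 66.7% against 51.5%, a difference of 15.2 percentage points and a ratio of 1.29. The autosome-wide ratio was 0.863. SS was higher in 31 of 42 steps and lower in 10. It was higher by at least 20 points in 19 steps, where 7.02% of all autosomal steps with a peak in either list were called in that direction. It was lower by at least 20 points in 5 steps, where 4.07% were called. Of the 19 steps, 11 lay on the Hoxc13 side and 8 on the Hoxc4 side, and the 5 steps where SS was lower all lay on the Hoxc4 side. The difference between genotypes was 22.5 points on the Hoxc13 side and 7.89 points on the Hoxc4 side.

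Among single steps, the largest excess of SS was at 102805001-102810000, where WT peaks covered 31.8% and SS peaks 100%. Next came 102715001-102720000, with 29.2% and 83.7%, and 102740001-102745000, with 56.1% and 100%. The largest deficits of SS were at 102835001-102840000, from 69.7% in WT to 19.5% in SS, at 102875001-102880000, from 55.5% to 18.2%, and at 102830001-102835000, from 51.6% to 24.6%. SS coverage is 100% throughout the dense stretch by its construction, so a deficit could arise only outside it.

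The size of this excess depended on how peaks were chosen. With only the peaks at or above each list's own median score it was 19.5 points, 59.4% in SS against 39.9% in WT cells, and with peaks of at least 500 bp it was 17.3 points. The highest -log10 q-value of an arrested SS peak in the window was 4.64, and that of a WT peak 31.2, in lists whose depths are unknown. With only peaks of a -log10 q-value of at least 5, WT covered 48.3% and SS 0%, which turns the direction. At that score the median difference of the 49 other long domains described next turned as well, to -34.0 points. With peaks within 1 kb merged, the shares were 72.5% in WT and 75.1% in SS cells, a difference of 2.67 points.

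The excess of arrested SS over WT was smaller in the HoxC domain than in most long domains. Proliferating H3K27me3 peaks longer than 10 kb were merged across genotypes, the 50 longest autosomal domains were kept, and HoxC was the second longest. Arrested peaks covered 52.1% of it in WT and 67.1% in SS cells, a difference of 14.9 points. The other 49 domains had a median difference of 37.3 points, from -1.59 to 49.9, and 47 of them exceeded HoxC. In WT cells HoxC was covered more than 42 of the 49, and in SS cells less than 42 of the 49, so it stood towards the high end in WT and the low end in SS. Of the 5 kb steps inside those other domains, 73.5% were called higher in SS and 1.32% lower, against 19 and 5 of the 42 steps of the HoxC window.

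The domains with the next larger differences than HoxC were chosen after their values were seen. They were chr11:96005560-96248997 with 17.3 points, chr6:52110166-52232917 with 21.0 points, chr14:63843950-63926637 with 23.6 points and chr2:74476009-74616193 with 23.7 points. In the RefSeq gene table the Hoxb genes lie on chromosome 11, the Hoxa genes on chromosome 6 and the Hoxd genes on chromosome 2. The chromosome alone does not place them in these domains, and which genes the domains hold was not determined without an mm9 annotation. A small excess is therefore not shown to be particular to HoxC. Domains on chromosome 8 at 126061175-126151267 and chromosome 17 at 35519929-35613863 had smaller differences than HoxC, -1.59 and 13.7 points, with 99.1% and 80.6% already covered in WT cells.

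**Figure D3:**
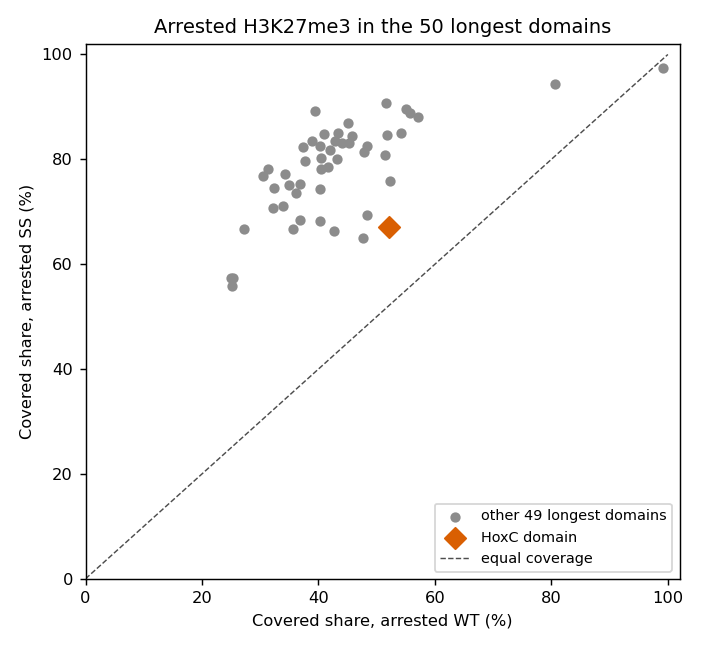
Covered share of the 50 longest H3K27me3 domains in the arrested WT list (x axis, %) and the arrested SS list (y axis, %), 1 point per domain, with HoxC as an orange diamond and equality dashed. HoxC, at 52.1% and 67.1%, lies closer to equality than 47 of the other 49 domains.

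In proliferating cells the genotypes covered the window almost alike, 97.7% in WT and 99.4% in SS, a difference of 1.67 points. The steps were equal in 39 of 42 and higher in SS in 3. SS was higher by at least 20 points in 1 step, at 102720001-102725000, with 38.9% in WT and 100% in SS cells. Over all autosomal steps with a peak in either list 16.3% were called in that direction. SS was lower by at least 20 points in 0 steps, against 4.58%. The long WT peak starts in that step, at 102723644, whereas the long SS peak starts at 102702120. With both lists near full coverage, a higher or lower level of the mark inside the domain cannot show in these values.

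Arrest went with less called H3K27me3 over HoxC in both genotypes. The window share was 51.5% arrested against 97.7% proliferating in WT cells, a ratio of 0.527, and 66.7% against 99.4% in SS cells, a ratio of 0.671. The autosome-wide ratios were 0.786 in WT and 0.562 in SS cells. In WT cells the arrested share was lower by at least 20 points in 34 of 42 steps, against 14.4% of autosomal steps, and higher in 0, against 3.47%. In SS cells it was lower in 25 steps, against 29.1% of autosomal steps, and higher in 0, against 1.91%. The window follows the limits of the longest proliferating peaks, so its choice favours a lower arrested share. Autosomal steps with little proliferating coverage cannot fall by 20 points, so they are not like the steps of the window. In the other 49 long domains the median arrested share was 40.9% in WT and 80.1% in SS cells. The HoxC domain had 52.1% and 67.1%. The counts of 0 say nothing, because proliferating coverage left almost no room for a rise of 20 points. The lowest proliferating SS step was covered to 86.8%. In WT cells such a rise was possible only at 102720001-102725000, which had 38.9% in proliferating cells. On the Hoxc4 side the difference was -60.8 points in WT and -53.2 in SS cells, and on the Hoxc13 side -31.6 and -12.2 points. The steps of largest loss were 102825001-102830000 in WT, from 100% to 12.4%, and 102875001-102880000 in SS, from 100% to 18.2%. Merging peaks within 1 kb brought the WT difference of the window from -46.2 to -26.7 points and the SS difference from -32.7 to -24.9 points. The fixed score of 5 brought the SS difference to -99.4 points, since it leaves no arrested SS peak. The growth conditions also differ in list size and peak length, and the part these play was not tested.

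Ezh2, the methyltransferase subunit of Polycomb repressive complex 2, was called over HoxC as scattered short peaks at about the level of the genome. The window held 75 peaks in WT and 94 in SS cells, with median lengths of 50 and 51 bp and longest peaks of 427 and 404 bp. They covered 3.52% of the window in WT and 4.20% in SS cells, where the autosomes were covered to 3.20% and 4.91%. A higher share was found in 35.2% of the other windows of 210 kb for WT and in 76.3% for SS. The flanks had 3.41% in WT and 4.95% in SS cells. Ezh2 coverage of the HoxC window thus did not stand out in the way H3K27me3 coverage did.

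The SS to WT ratio of Ezh2 coverage was 1.19 in the window and 1.54 over the autosomes. With the longer list cut by score to the covered length of the shorter, the direction turned, with 2.64% in SS against 3.52% in WT, a difference of -0.880 points. SS was higher in 28 of 42 steps and lower in 14. A difference of 20 points, found in 0.218% of autosomal steps, could not occur in the window, where no step was covered beyond 11.5%. In the window 6 of the 94 SS peaks (6.38%) overlapped a WT peak, where 8.15% of all autosomal SS peaks did. Of the 75 WT peaks 6 (8%) overlapped an SS peak, where 11.5% of all autosomal WT peaks did. Within the window, Ezh2 peaks covered 4.78% of the Hoxc13 side and 2.27% of the Hoxc4 side in WT cells, and 5.19% and 3.21% in SS cells. The sides of 4 of the 49 other domains differed by more in WT and those of 13 in SS cells. The peak of highest score was at 102735492-102735541 in WT, with a -log10 q-value of 5.82, and at 102770849-102770899 in SS, with 7.16. Ezh2 coverage before, inside and after the dense H3K27me3 stretch was 5.15%, 4.24% and 2.38% in WT cells and 4.47%, 5.36% and 3.20% in SS cells, so in WT it was highest before the stretch.

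pRb peaks in the window were few and short, and their coverage lay near that of the genome. In arrested cells 40 peaks covered 3.88% of the window in WT and 45 peaks 4.62% in SS cells, where the autosomes were covered to 3.07% and 5.45%. In proliferating cells 8 peaks covered 0.538% in WT and 14 peaks 0.951% in SS cells, with 0.456% and 0.619% over the autosomes. A higher share was found in 12.6% of the other windows for arrested WT, 84.4% for arrested SS, 32.9% for proliferating WT and 12.3% for proliferating SS. The longest pRb peak had 577 bp, at 102748805-102749381 in arrested SS cells. The highest score was 666, at 102715586-102715733 in the same list, and ranked 746 of 650383. In the other lists the highest score in the window was 271 for arrested WT, 36.4 for proliferating WT and 35.0 for proliferating SS.

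The ratios of pRb coverage between genotypes and growth conditions lay above 1 in the window, as over the autosomes. The SS to WT ratio of window coverage was 1.19 in arrested and 1.77 in proliferating cells, with 1.78 and 1.36 over the autosomes. By steps the arrested differences went in both directions, with SS higher in 18 of 42, lower in 19 and equal in 5. In proliferating cells SS was higher in 10 steps, lower in 7 and equal in 25. Arrested coverage was 7.22 times proliferating coverage in WT and 4.86 times in SS cells, with 6.72 and 8.81 over the autosomes. Under arrest coverage was higher in 25 of 42 steps and lower in 4 in WT cells, and higher in 28 and lower in 2 in SS cells. The call of 20 points says nothing on pRb here, since no step of the window was covered beyond 18.5%. Of autosomal steps it took 0.972% and 0.0196% between genotypes, arrested and proliferating, and 0.207% and 1.59% between growth conditions, WT and SS. With the longer list cut by score to the covered length of the shorter, both the arrested genotype difference and the growth differences turned direction, to between -1.83 and -0.152 points.

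WT and SS pRb peaks of the same growth condition overlapped in the window at shares near those of all autosomal peaks. Of the places with a pRb peak, 98 were called in 1 list, 3 in 2 lists and 1 in 3 lists, a count for which no autosomal share was computed. The last, at 102849511-102849907, held the longest peak of both the arrested WT and the proliferating WT list and also an arrested SS peak. Of the arrested peaks, 4 of 40 in WT (10.0%) and 4 of 45 in SS (8.89%) overlapped a peak of the other genotype, with 11.1% and 7.25% over the autosomes. In proliferating cells 0 of 8 and 0 of 14 did, with 1.70% and 1.25% over the autosomes. This place was picked after its values were seen.

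**Figure D4:**
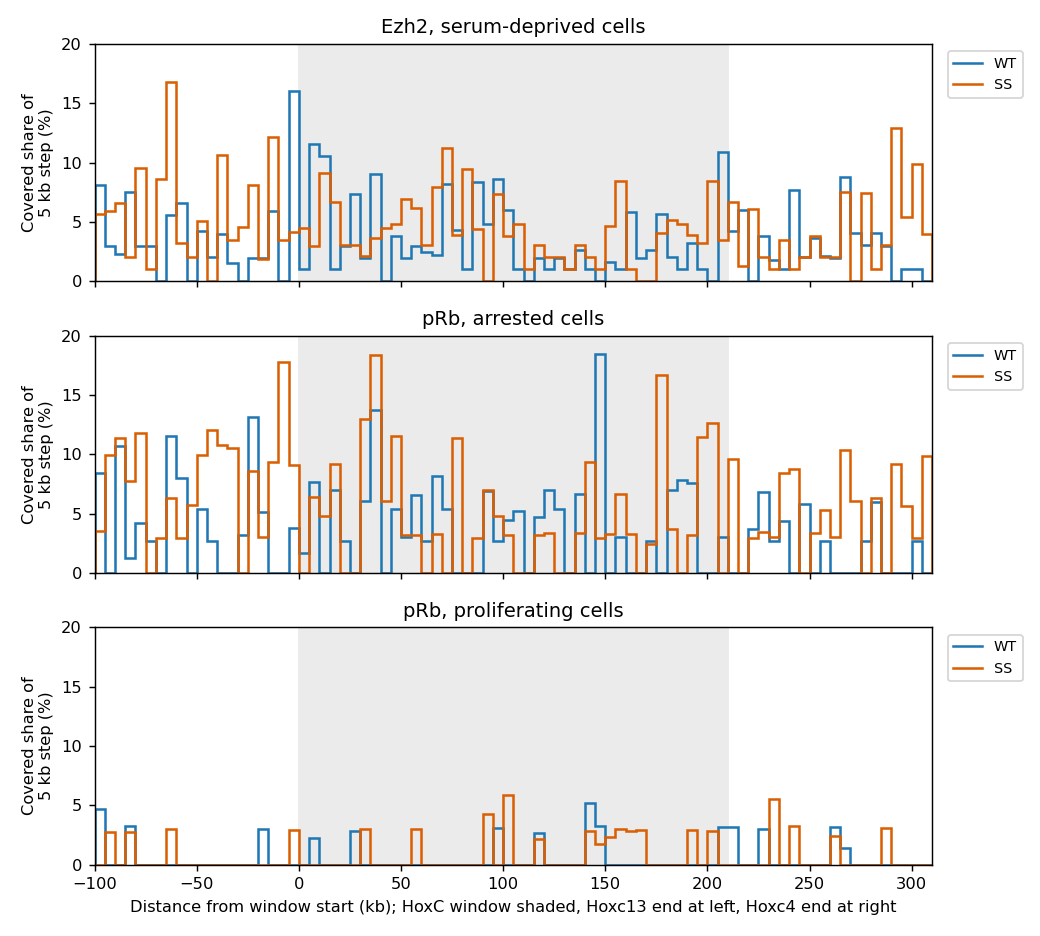
Share of each 5 kb step covered by Ezh2 peaks (top) and by pRb peaks of arrested (middle) and proliferating cells (bottom) (y axes, %) against distance from the window start (x axis, kb), WT in blue and SS in orange, 1 library each, window shaded. No step of the window exceeds 11.5% for Ezh2 or 18.5% for pRb, and most steps have no pRb peak in proliferating cells.

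The length of pRb peaks inside H3K27me3 lay below the share of the window that H3K27me3 covered in arrested cells. In arrested WT cells 21 of 40 pRb peaks (52.5%) touched an H3K27me3 peak, with 13.7% over the autosomes. Of their length 43.5% lay inside one, where 51.5% of the window was covered. In arrested SS cells 29 of 45 (64.4%) touched one, with 9.27% over the autosomes. Of the length 62.3% lay inside, where 66.7% of the window was covered. Ezh2 peaks lay in H3K27me3 somewhat above the window's covered share: 60.0% of their length against 51.5% in WT, and 81.1% against 66.7% in SS cells. Of the Ezh2 peaks, 48 of 75 in WT (64.0%) and 71 of 94 in SS (75.5%) touched one, with 11.3% and 8.37% over the autosomes. H3K27me3 itself covered 7.47% (WT) and 6.45% (SS) of the autosomes. Of the arrested pRb peaks, 4 of 40 in WT (10.0%) and 2 of 45 in SS (4.44%) overlapped an Ezh2 peak, with 10.5% and 16.7% over the autosomes. Ezh2 peaks held 4.09% of the pRb peak length in WT, where they covered 3.52% of the window, and 0.556% in SS, where they covered 4.20%. The arrested pRb and the other arrested libraries carry different arrest labels.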

How the data were processed

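Per the submitters' processing notes, Bowtie2, MACS2, HOMER and bedtools were used with the mm9 build. Their versions, roles and settings were not stated there. Each library has 1 list. The 4 deposited pRb lists give a score per peak with no stated unit. The other 6 deposited lists have 9 columns, read from their layout and values as a score, a fold enrichment ratio, a -log10 p-value and a -log10 q-value by the authors. Reads and the 10 inputs were not used here.

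From the lists the covered share was computed of the window, of 42 steps of 5 kb, of 100 kb flanks, of tiled autosomal windows of 210 kb and of the 50 longest of 4359 domains. A step was called where 2 lists differed by at least 20 percentage points, over autosomal steps with a peak in either list. Overlap needed 1 bp, and its share over all autosomal peaks was added after the data were seen. The coverage code was tested on simulated data. Alternatives were a common score cutoff, peaks at or above the list's median score, equal covered length, peaks of at least 500 bp, merging within 1 kb, other window and flank limits, and steps of 2 and 10 kb. A fixed score of 5 (-log10 q-value) or 50 (pRb), the midpoint division and the dense stretch were added after the data were seen. Named are the 9 members, the steps of largest gain and loss, and the longest and highest-scoring peak per list. The members, window and lists were chosen with earlier results of these data known. Samples were grouped by title. Python 3.11.15, numpy 2.4.6, pandas 2.3.3 and matplotlib 3.10.9 were used.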

Additional observations from a re-analysis of the deposited data

Results flagged for a closer look

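Beside the HoxC window, the SS minus WT difference in H3K27me3 coverage was positive in arrested cells and slightly below 0 in proliferating cells. In the 100 kb beside Hoxc13 it was 32.3 percentage points in arrested and -0.368 in proliferating cells, and in the 100 kb beside Hoxc4 it was 11.6 and -2.89 points. The proliferating flanks were covered to between 77.7% and 91.2% in both lists. Single proliferating steps there differed in both directions. Examples are 102940001-102945000, with 84.6% in WT and 52.7% in SS, and 102665001-102670000, with 67.0% in WT and 82.6% in SS. Without replicates the small values below 0 give no direction. The difference between growth conditions was not tested, since each value rests on 1 library per genotype.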

How the results depend on the processing

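All values are differences in covered share in percentage points unless stated. No paired analysis was possible because each group has 1 library. The common score cutoff changed no window value. The lists compared begin at nearly the same lowest score, so this setting could not show a dependence. Peaks at or above the median score left all 9 window comparisons in the same direction. With them, pRb arrested against proliferating shrank from 3.35 to 1.08 in WT and from 3.67 to 1.22 in SS. Arrested pRb SS against WT shrank from 0.736 to 0.419, and Ezh2 SS against WT from 0.677 to 0.357. Equal covered length turned arrested pRb SS against WT to -1.83, Ezh2 SS against WT to -0.880, and pRb arrested against proliferating to -0.152 in WT and -0.214 in SS. Peaks of at least 500 bp left 0.275 for arrested pRb SS against WT and for pRb in SS arrested against proliferating, and 0 in both lists for proliferating pRb, for Ezh2 and for pRb in WT, where the window then holds 0% in each list. Against the flanks that setting left 0 for arrested WT, proliferating WT and proliferating SS pRb and for both Ezh2 lists, and -0.0272 for arrested SS pRb. Merging within 1 kb brought H3K27me3 SS against WT to 2.67 in arrested and 0.804 in proliferating cells, and arrested against proliferating to -26.7 in WT and -24.9 in SS. With 10 kb removed at each end the proliferating H3K27me3 difference was 1.61 and that of arrested against proliferating SS -31.0. The fixed score gave -48.3 for arrested H3K27me3 SS against WT, -99.4 for H3K27me3 in SS arrested against proliferating, 0.137 for Ezh2, 0 for proliferating pRb, and 3.17 and 4.22 for pRb arrested against proliferating in WT and SS. Against the flanks, proliferating WT pRb turned from -0.00740 to 0.0751 with flanks of 50 kb and to 0.143 with flanks 20 kb away, and SS Ezh2 turned from -0.749 to 0.0445 with flanks of 50 kb. The excess of the Hoxc13 side over the Hoxc4 side in arrested WT was 38.5 with peaks at or above the median score and 20.2 with merging, and in arrested SS 0 at the fixed score, where no SS peak is left. With steps of 2 kb, arrested pRb SS was higher than WT by 20 points in 5 steps (4.76%) and lower in 1 (0.952%). By the same call, pRb in SS was higher under arrest in 6 steps (5.71%) and lower in 0. For pRb in WT the counts were 1 and 0. Ezh2 SS was higher than WT in 0 steps and lower in 1. No autosomal share was computed for steps of 2 kb, so no excess can be read from these counts. In the arrested SS minus WT difference, 47 or 48 of the 49 other domains exceeded HoxC in each alternative but the fixed score. At the fixed score 45 did, with -48.9 points in HoxC and a median of -34.0 in the others, so that count does not describe an excess of SS. The cause of these shifts was not tested. With 1 library per group and unknown depth, no error can be set on a difference.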
